A study of Mus musculus with 16 samples.

Results

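The genes described here are 8 markers of the dermal papilla, namely Corin, Alpl, Rspo3, Sox2, Sox18, Wif1, Crabp1 and Igfbp4, of 16593 genes named on the array. All probes that the platform annotation pairs with these symbols were taken, which gave 10 of the 25697 probes on the array: 2 each for Sox2 and Igfbp4 and 1 for each other gene. Expression was read on 16 Illumina bead arrays, with 1 colour each, of RNA from mice aged 15 days, on a mixed background of C57/BL6 and 129Ola. The mutant group of 7 arrays carried K14-cre with the floxed Gab1 allele (K14-cre; Gab1fl), and 9 arrays came from mice labelled control, whose alleles the labels do not detail further. The keratin 14 promoter drives Cre in basal cells of epidermis and follicle and is not a promoter of the papilla, and Gab1 is a docking protein downstream of receptor tyrosine kinases. The labels name dorsal skin as the tissue, whereas the series' design text speaks of cells sorted for integrin alpha 6. Krt14 and Itga6 of basal keratinocytes and Col1a1 of fibroblasts were detected on all 16 arrays.

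The dermal papilla is a cluster of specialised fibroblasts at the base of the hair follicle. It signals to the epithelial matrix above it through secreted factors of the Wnt, BMP, FGF and IGF pathways and so controls growth and size of the hair, while epithelial signals in turn maintain the papilla. Several of its markers are regulators of these pathways, and others mark its identity or its enzymes.

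The arrays are not 16 independent samples. Within each labelled group, arrays whose log2 signals correlated above 0.99 were joined, which gave 5 sets, called sources here. Mutant source 1 comprised 3 arrays and mutant source 2 comprised 4, and each of the 3 control sources comprised 3. Arrays of the same source correlated at 0.994 to 0.996, whereas the 2 mutant sources correlated at 0.935 to 0.936 with each other and control sources at 0.961 to 0.986. Mutant arrays correlated with control arrays at 0.933 to 0.964 (median 0.956). The 2 mutant sources were thus less alike than a typical pair of a mutant and a control array. Arrays of a source were averaged, and each source counted as 1 sample. The labels do not say whether sources are separate mice or pools, so a p-value here measures only the spread between sources. Between 13406 and 14636 probes were detected per array. The targeted Gab1 itself stood at 11.34 and 11.97 on the log2 scale in the mutant sources, against 12.69, 12.69 and 12.68 in control sources 1, 2 and 3. That is 48.9% of the control level, with an limma adjusted p of 0.239. Eif2s3y, a gene of the Y chromosome, had a log2 signal of 9.14 in mutant source 1 and 4.78 in mutant source 2, against 10.41 to 10.74 in the control sources. It was detected on 3 of 7 mutant arrays and 9 of 9 control arrays. Arrays of mutant source 2 ranged from 4.70 to 4.88, at background. The part of sex in the member differences was not tested.

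Promoter sequences are shown for the 3 members that varied most between sources (Corin, Wif1 and Crabp1) and for Igfbp4, which was the steadiest among controls. Each runs from 250 bases before to 50 bases after the transcript start in RefSeq (GRCm38.p6), read 5′ to 3′ on the strand of the gene. Capitals mark the GC box GGGCGG and the TATA box TATAAA, on either strand.
Corin, chr5:72504491-72504790, minus strand: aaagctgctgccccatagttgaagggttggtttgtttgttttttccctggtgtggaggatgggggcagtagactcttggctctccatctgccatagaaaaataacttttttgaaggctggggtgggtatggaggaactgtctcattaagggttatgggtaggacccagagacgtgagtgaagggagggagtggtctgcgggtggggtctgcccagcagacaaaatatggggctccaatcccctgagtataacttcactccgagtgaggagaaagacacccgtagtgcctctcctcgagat
Wif1, chr10:121033754-121034053, plus strand: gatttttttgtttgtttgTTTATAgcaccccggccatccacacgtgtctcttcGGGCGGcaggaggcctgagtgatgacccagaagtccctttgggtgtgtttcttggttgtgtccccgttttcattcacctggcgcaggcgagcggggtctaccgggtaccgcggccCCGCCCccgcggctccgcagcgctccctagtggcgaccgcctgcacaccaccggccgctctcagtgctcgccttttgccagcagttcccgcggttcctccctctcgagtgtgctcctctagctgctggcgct
Crabp1, chr9:54764498-54764797, plus strand: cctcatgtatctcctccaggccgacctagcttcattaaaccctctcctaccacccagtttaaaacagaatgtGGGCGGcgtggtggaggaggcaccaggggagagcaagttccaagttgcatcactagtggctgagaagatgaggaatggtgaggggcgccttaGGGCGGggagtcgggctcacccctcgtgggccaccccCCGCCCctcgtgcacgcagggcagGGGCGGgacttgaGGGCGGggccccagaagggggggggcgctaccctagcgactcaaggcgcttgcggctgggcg
Igfbp4, chr11:99040994-99041293, plus strand: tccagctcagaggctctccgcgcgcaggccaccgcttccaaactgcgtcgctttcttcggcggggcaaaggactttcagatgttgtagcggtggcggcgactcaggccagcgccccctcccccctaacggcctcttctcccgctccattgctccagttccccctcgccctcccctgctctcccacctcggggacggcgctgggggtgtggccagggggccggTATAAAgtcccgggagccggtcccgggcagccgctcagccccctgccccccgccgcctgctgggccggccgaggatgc
The Crabp1 window held 5 GC boxes and the Wif1 window 2, while the Corin and Igfbp4 windows held none. GC boxes occurred in 35.7% of the 32851 promoters of this table. A TATA box stood in the Wif1 and Igfbp4 windows, against 13.6% of all promoters. Neither the TCF and LEF letters CTTTGAT (3.73% of all promoters) nor the Sox core letters AACAAT (10.7%), searched on both strands, occurred in the 7 promoters listed for 6 of the members. A match is only a run of letters. The Corin window held none of the 4 motifs.

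Of the 10 probes, 8 passed the filter on dim probes (detection p below 0.05 on at least 7 arrays), and these read 7 of the 8 genes. All 8 were detected on every one of the 16 arrays. Sox2, a transcription factor of the papilla in some hair types and of Merkel cells, was the exception. Its probe ILMN_1248711 was detected on none of the 16 arrays. The other, ILMN_2656102, was detected on 2 of 7 mutant arrays and 4 of 9 control arrays. On this second probe the mutant arrays ranged from 5.01 to 6.74 (median 5.71) and the control arrays from 5.09 to 6.12 (median 5.71), so that the groups overlapped. On the first probe they ranged from 4.80 to 5.88 in the mutant and from 4.69 to 5.13 in the control. The 2 mutant arrays that detected ILMN_2656102 belonged to mutant source 2. No Sox2 difference was detectable at this signal.

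Transcripts of the other 7 genes were lower on average in the mutant, with log2 differences between -2.71 for Crabp1 and -0.74 for Igfbp4. None passed the threshold: 0 of 8 probes had an limma adjusted p below 0.05, against a background of 0.0552% of the 14504 tested probes in either direction and 0.0345% lower in the mutant. All 8 differences were negative, as were 46.8% of all. With the 16 arrays taken as separate samples, which counts near-identical arrays as independent, limma called all 8 lower, against 16.5% of all tested probes. At an unadjusted p below 0.05, 4 of the 8 probes (Alpl, Sox18 and both of Igfbp4) were lower, against 6.52% of all tested probes. The median log2 difference was -1.04 over the 8 probes and 0.02 over all tested probes. It was -1.73 without mutant source 1 and -0.63 without mutant source 2. No cell was measured singly, whether the RNA came from skin or from sorted cells. Fewer papilla cells, less RNA per papilla cell and less of these transcripts from other cells therefore cannot be told apart. If cells were sorted, how many papilla cells came through the sort is not known.

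**Figure D1:**
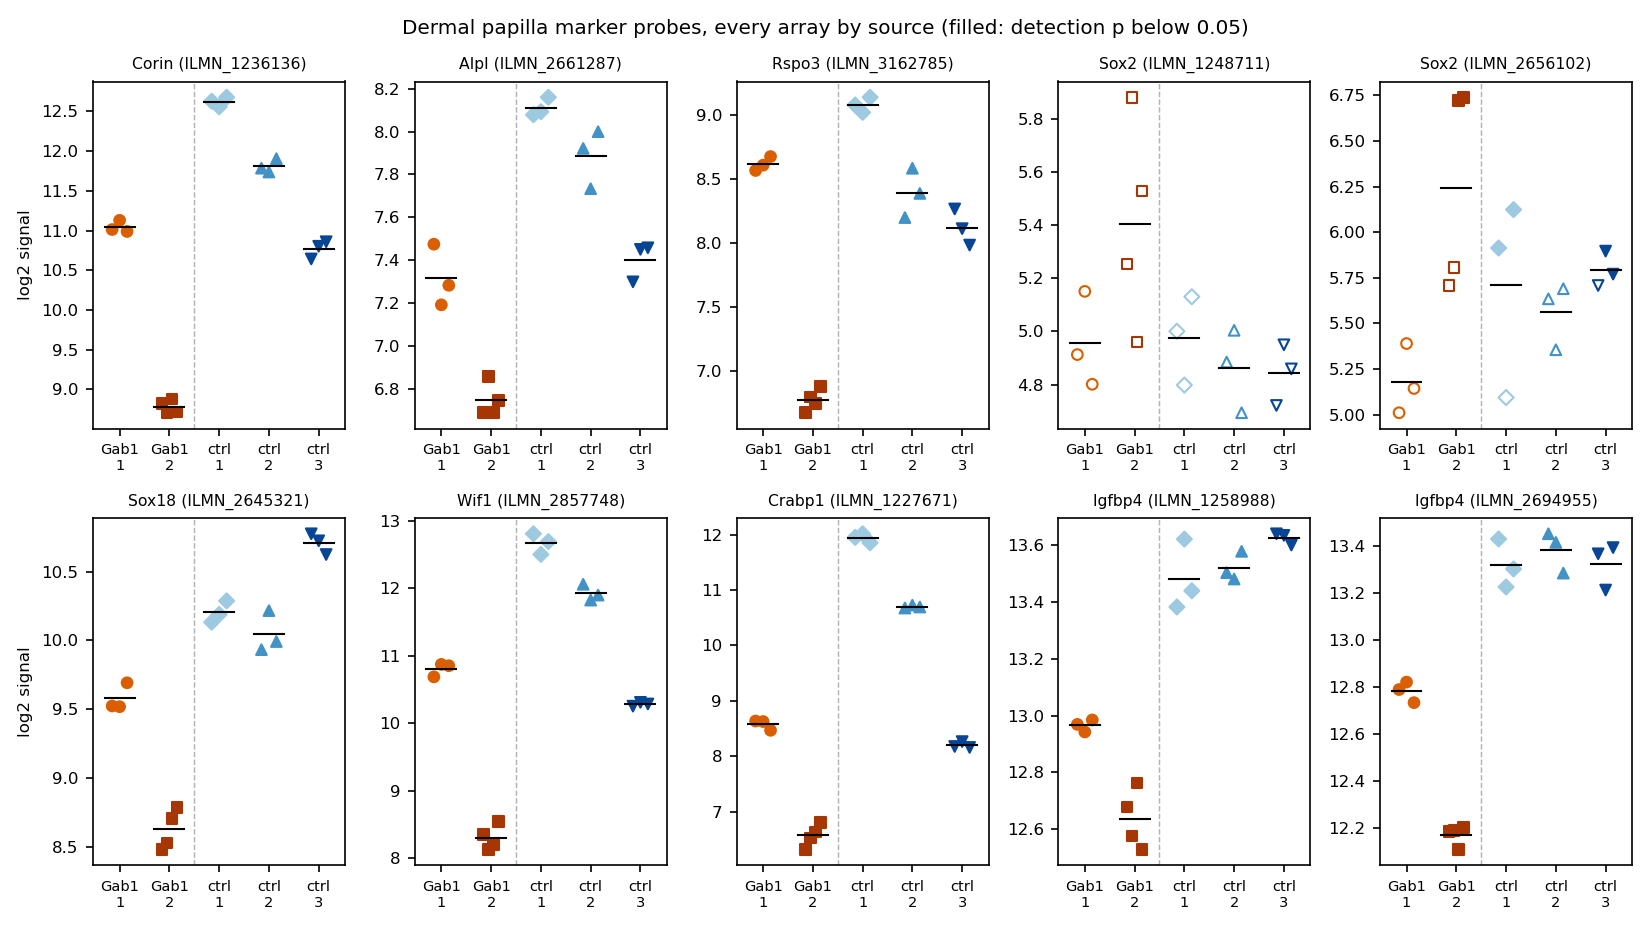
Log2 signal (vertical axes, each panel with its own scale) of the 10 member probes on every array, arranged by mutant source (Gab1 1 and 2) and control source (ctrl 1, 2 and 3). Points are arrays, filled where the detection p is below 0.05, and bars are source means. Mutant source 2 is the lowest source for all probes but those of Sox2, and control sources step down from 1 to 3 for Corin, Alpl, Rspo3, Wif1 and Crabp1.

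Igfbp4 and Sox18 were the members whose mutant arrays all lay below all control arrays. Igfbp4 encodes a secreted protein that binds insulin-like growth factors and limits their access to the receptor. On its probe ILMN_1258988 the mutant arrays ranged from 12.53 to 12.99 (median 12.76), against 13.38 to 13.64 in the control arrays (median 13.58). The source means were 12.97 and 12.64 in mutant sources 1 and 2, against 13.48, 13.52 and 13.63 in control sources 1, 2 and 3. Both mutant sources were thus clear of all controls by at least 0.52, and the controls spanned 0.14. The difference was -0.74 (SE 0.14, 95% interval -1.10 to -0.39), which is 59.8% of the control level, with an limma adjusted p of 0.238. The second probe, ILMN_2694955, had a mean of 12.48 ± 0.43 over mutant sources and 13.34 ± 0.04 over control sources (SD, n = 2 and 3). It gave -0.87 (SE 0.20, limma adjusted p = 0.261), so that both probes gave the same direction. Without mutant source 2 the second probe gave -0.56, and without mutant source 1 it gave -1.17.

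Sox18 encodes a SoxF transcription factor that acts in the early papilla and in vascular endothelium. Mutant arrays ranged from 8.48 to 9.69 (median 8.79), against 9.93 to 10.78 in control arrays (median 10.22). By source, the means were 9.58 and 8.63 in the mutant, against 10.20, 10.05 and 10.71 in control sources 1, 2 and 3. No mutant array reached the lowest control array. The log2 difference was -1.22 (SE 0.36, 95% interval -2.11 to -0.33), or 43.0% of the control level, with an limma adjusted p of 0.321. It was -1.69 without mutant source 1 and -0.74 without mutant source 2. An exact two-sided permutation of sources gave p = 0.1 for Sox18 and both Igfbp4 probes, and with 10 possible splits no smaller value exists. Among all tested probes, 6.54% had every mutant array below every control array, and here 3 of the 8 did.

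Markers of endothelium, where Sox18 is also expressed, stood lower as well. Of 13 endothelial genes listed, 11 were tested, and 9 of the 11 were below every control source in both mutant sources, against 14% of all tested probes. Their mean log2 signal was 11.11 and 11.10 in the mutant sources, against 11.62, 11.87 and 12.57 in control sources 1, 2 and 3. Esam, an endothelial junction protein, differed by -1.18 (limma adjusted p = 0.315) and Ramp2, a receptor partner in vessels, by -0.75 (limma adjusted p = 0.301). The SoxF relative Sox17 differed by -1.90 (limma adjusted p = 0.239) and stood highest in control source 3, as did Sox18. How far endothelial RNA contributes to the Sox18 difference was not tested.

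Crabp1, Wif1 and Corin had the largest differences and also the widest spread. Crabp1 encodes a cytoplasmic carrier of retinoic acid. Its source means were 8.58 and 6.57 in mutant sources 1 and 2, against 11.94, 10.70 and 8.20 in control sources 1, 2 and 3. The control sources alone spanned 3.74 log2 units, a 13.4-fold range, while arrays of a single control source differed by at most 0.16. The standard deviation over control sources, 1.91, exceeded that of 99.9% of tested probes. Mutant source 1 lay 0.38 above control source 3, so that the groups overlapped. The difference of -2.71 (SE 1.19, 95% interval -5.69 to 0.28), or 15.3% of the control level, had an limma adjusted p of 0.453. Arrays of mutant source 2 lay near background, at 6.32 to 6.81, which limits the precision of this percentage. Without background correction the difference was -2.07.

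Wif1 encodes a secreted inhibitor that binds Wnt ligands. Mutant arrays ranged from 8.14 to 10.87 (median 8.54), against 10.25 to 12.81 in control arrays (median 11.90). The source means were 10.80 and 8.31 in mutant sources 1 and 2, against 12.66, 11.93 and 10.28 in control sources 1, 2 and 3. Mutant source 1 was again above control source 3, here by 0.52, and mutant source 2 was below every other source. Its standard deviation over control sources, 1.22, exceeded that of 99% of tested probes, and the mutant mean was 23.8% of the control level. The difference was -2.07 (SE 0.97, 95% interval -4.49 to 0.35, limma adjusted p = 0.478). It was -3.32 without mutant source 1 and -0.82 without mutant source 2.

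Corin encodes a membrane serine protease of the papilla, known there as a modifier of the agouti pigment pathway and in the heart for processing a natriuretic peptide. Mutant arrays ranged from 8.70 to 11.13 (median 8.88), against 10.64 to 12.68 in control arrays (median 11.79). Source means were 11.04 and 8.78 in mutant sources 1 and 2, against 12.62, 11.81 and 10.77 in control sources 1, 2 and 3. The 5 sources held the same order as for Wif1 and Crabp1, with mutant source 1 between control sources 2 and 3. The mutant mean was 28.3% of the control level. The difference was -1.82 (SE 0.82, 95% interval -3.86 to 0.22, limma adjusted p = 0.457). It was -2.95 without mutant source 1 and -0.69 without mutant source 2. For Crabp1 these values were -3.71 and -1.70, so that the size of all 3 differences turned on which mutant source was read. An exact two-sided permutation of sources gave p = 0.3 for each of them.

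**Figure D2:**
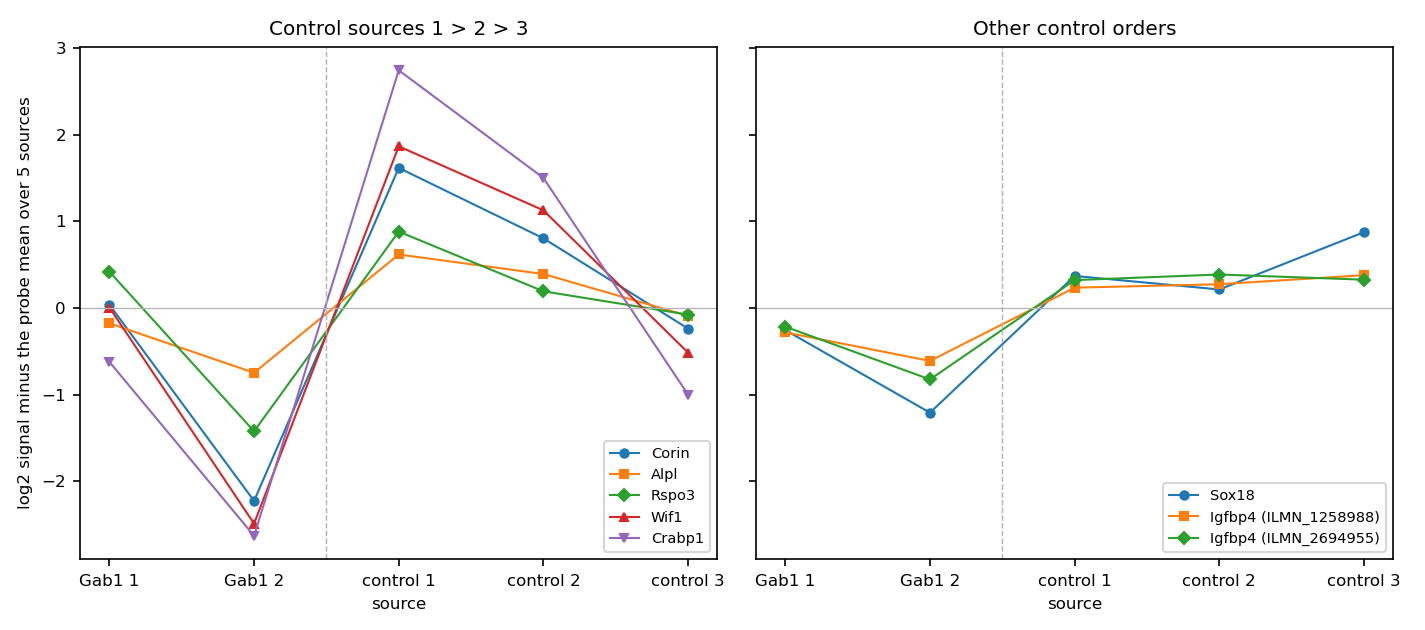
Log2 signal of each tested member probe minus its own mean over the 5 sources (vertical axis), for mutant sources (Gab1 1 and 2) and control sources 1 to 3 (horizontal axis). Lines join the values of a probe, and the sources have no order in time. Corin, Wif1, Crabp1, Rspo3 and Alpl (left) step down over the control sources, whereas Sox18 and Igfbp4 (right) do not.

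Rspo3 and Alpl had the same order of control sources with a smaller span. Rspo3 encodes a secreted R-spondin that binds Lgr receptors and strengthens Wnt signalling. Its means were 8.61 and 6.77 in mutant sources 1 and 2, against 9.08, 8.39 and 8.12 in control sources 1, 2 and 3. On single arrays the mutant ranged from 6.67 to 8.67, against 7.98 to 9.14 in the control. Only mutant source 2 stood apart, since mutant source 1 exceeded control sources 2 and 3. The difference of -0.83 (SE 0.60, 95% interval -2.33 to 0.66, limma adjusted p = 0.652) turned to 0.087 without mutant source 2 and was -1.76 without mutant source 1.

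Alpl encodes tissue-nonspecific alkaline phosphatase, whose enzyme activity is a classical stain for the papilla. It stood at 7.32 and 6.75 in mutant sources 1 and 2, against 8.11, 7.88 and 7.40 in control sources 1, 2 and 3. Both mutant sources were below the controls, but the gap between mutant source 1 and control source 3 was 0.09, less than the spread of 0.10 between arrays of a source. Arrays of those 2 sources overlapped, at 7.19 to 7.47 in the mutant and 7.30 to 7.46 in the control. The difference was -0.77 (SE 0.30, 95% interval -1.53 to -0.0067, limma adjusted p = 0.408), or 58.7% of the control level. It was -1.05 without mutant source 1 and -0.48 without mutant source 2. Exact permutation of sources gave p = 0.2 for Alpl and 0.5 for Rspo3.

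Over the 8 tested probes, 4 had both mutant sources below all control sources (Alpl, Sox18 and both of Igfbp4), against 14% of all tested probes. Read with mutant source 2 alone the count was 8, against 36.6% of all probes, and with mutant source 1 alone it was 4, against 32.8%. Without control source 3 it was 7, against 18.3%. All 8 probes were lowest in mutant source 2, as were 30.6% of all probes. Among the control sources 5 of the 8 ran from 1 over 2 to 3 in descending order, and 34.6% of all probes did. Mutant source 1 exceeded mutant source 2 by 5.64-fold for Wif1, 4.81-fold for Corin, 4.02-fold for Crabp1 and 3.59-fold for Rspo3. For Sox18 the ratio was 1.94-fold, and for the first Igfbp4 probe 1.26-fold. With the Eif2s3y level as a covariate, which is lowest in mutant source 2, the differences of Corin, Rspo3 and Wif1 became 0.14, 0.73 and 0.10, none of them negative. The other 5 were nearer to 0 than without it, at -0.85 for Crabp1, -0.46 for Sox18, -0.26 for Alpl and -0.48 and -0.37 for Igfbp4. The covariate was lower in both mutant sources (9.14 and 4.78) than in any control source (10.41 to 10.74). Its slope thus rests mainly on the contrast of the 2 mutant sources, with 2 residual degrees of freedom. The differences with the covariate are therefore extrapolations.

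Likeness of the profiles was measured as the root mean square distance between source values, each probe centred on its own mean. The closest pair of different members was Alpl and the second Igfbp4 probe at 0.23 log2 units, and Corin and Wif1 followed at 0.25. Among the other tested genes, Cd3d and Itgae, both expressed in T cells, were nearest to Corin (0.14 and 0.18). Chodl and Sct were nearest to Wif1 (0.13 and 0.20). Stac and St6galnac5 were nearest to Crabp1, at a wider distance (0.39 and 0.42). Npr2, a natriuretic peptide receptor, and Ppp3cc were nearest to Alpl (both 0.08), and H4c3 and Ier2 to Rspo3 (0.14 and 0.15). Sult1a1 and Syt15 were nearest to Sox18 (0.10 and 0.11). Hyi and Slc27a1 were nearest to the first Igfbp4 probe (0.02 and 0.04), and Gadd45g and Cbr1 to the second (0.05 and 0.08). With only 5 sources such likeness is a description.

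The T cell markers, to which the gene nearest to Corin belongs, descended over the control sources as Corin, Wif1 and Crabp1 did, and unlike Sox18 and Igfbp4. All 5 listed T cell genes were tested, and their mean log2 signal was 7.53 and 5.66 in mutant sources 1 and 2, against 9.61, 8.62 and 7.97 in control sources 1, 2 and 3. Of these, 4 were below every control source in both mutant sources, against 14% of all tested probes. The median difference was -2.74, and 0 of the 5 genes passed the threshold (smallest limma adjusted p = 0.257). Cd3e and Cd2 were detected on 3 of 7 mutant arrays and Trat1 and Cd3d on 4 of 7, against 9 of 9 control arrays. These 4 genes thus passed the filter on dim probes through the control arrays. Cd3g was detected on 7 of 7 mutant arrays and differed by -2.79. In mutant source 2 the 5 genes lay near background, from 5.20 for Cd3e to 6.70 for Cd3g, which limits the precision of their differences. The 4 tested melanocyte genes had mean signals of 10.50 and 8.93 in the mutant sources, against 11.54, 11.02 and 10.17 in the control sources. The 12 tested dermal fibroblast genes, the wider cell class of the papilla, spanned less on average, at 10.99 and 10.65 in the mutant, against 11.38, 11.29 and 11.06 in the control. Their mean joined opposite trends. Over control sources 1 to 3, 7 of the 12 descended and 5 ascended, against 34.6% and 29.1% of all probes. Hair matrix genes (6 tested) stood at 11.19 and 8.77 in the mutant sources, against 10.65, 9.96 and 8.88 in the control sources, so that mutant source 1 was the highest of all there. The part of these cell types in the member differences was not tested.

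Other markers of the papilla, taken from a list of 19 genes that shares none with the members, were mostly lower too. Of its 14 tested genes 0 passed the threshold, 11 had a negative difference, and 7 were below every control source in both mutant sources, against 14% of all probes. The median difference was -0.86. Of the 7, Hhip was detected on 1 of 7 mutant and 9 of 9 control arrays, and Bmp6 on 2 and 7. Both thus passed the filter on dim probes through the control arrays, with mutant values near background. Outside the 7, Fgf10, Lef1 and Scube3 also passed it through the control arrays. They were detected on 4, 3 and 4 of 7 mutant arrays and on 9 of 9 control arrays. In mutant source 2 they stood at 5.92, 5.20 and 5.65, near background. Without mutant source 1 the count of 7 became 11, against 36.6% of all probes, and without mutant source 2 it was 7, against 32.8%. Hey1, a target of Notch signalling, stood at 10.43 and 10.65 in mutant sources 1 and 2, against 11.52, 11.79 and 12.28 in control sources 1, 2 and 3, and differed by -1.32 (SE 0.25, limma adjusted p = 0.237). It was the reverse of Corin among the controls, being highest in control source 3, as was the mean of the endothelial genes. Sostdc1, an inhibitor of BMP and Wnt signalling, differed by -0.59 (SE 0.15, limma adjusted p = 0.289). The growth factor genes Fgf7, Fgf10, Inhba and Bmp4 differed by -1.47, -2.28, -2.07 and -1.30, with limma adjusted p between 0.409 and 0.457. Unlike Corin and Wif1, Fgf7 stood at nearly the same level in both mutant sources, at 7.89 and 7.90, against 10.44, 9.52 and 8.14 in the control sources. Inhba likewise stood at 10.28 and 10.13 in the mutant, against 13.60, 12.63 and 10.61 in the control. These 4 genes descended over control sources 1 to 3, as did 10 of the 14. Bmp6, also a growth factor gene, differed by -0.51 (limma adjusted p = 0.492) and ascended over the control sources, at 5.97, 6.18 and 6.45. Prdm1, Nog and Spon1 had positive differences, of 0.62, 0.25 and 0.23.

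**Figure D3:**
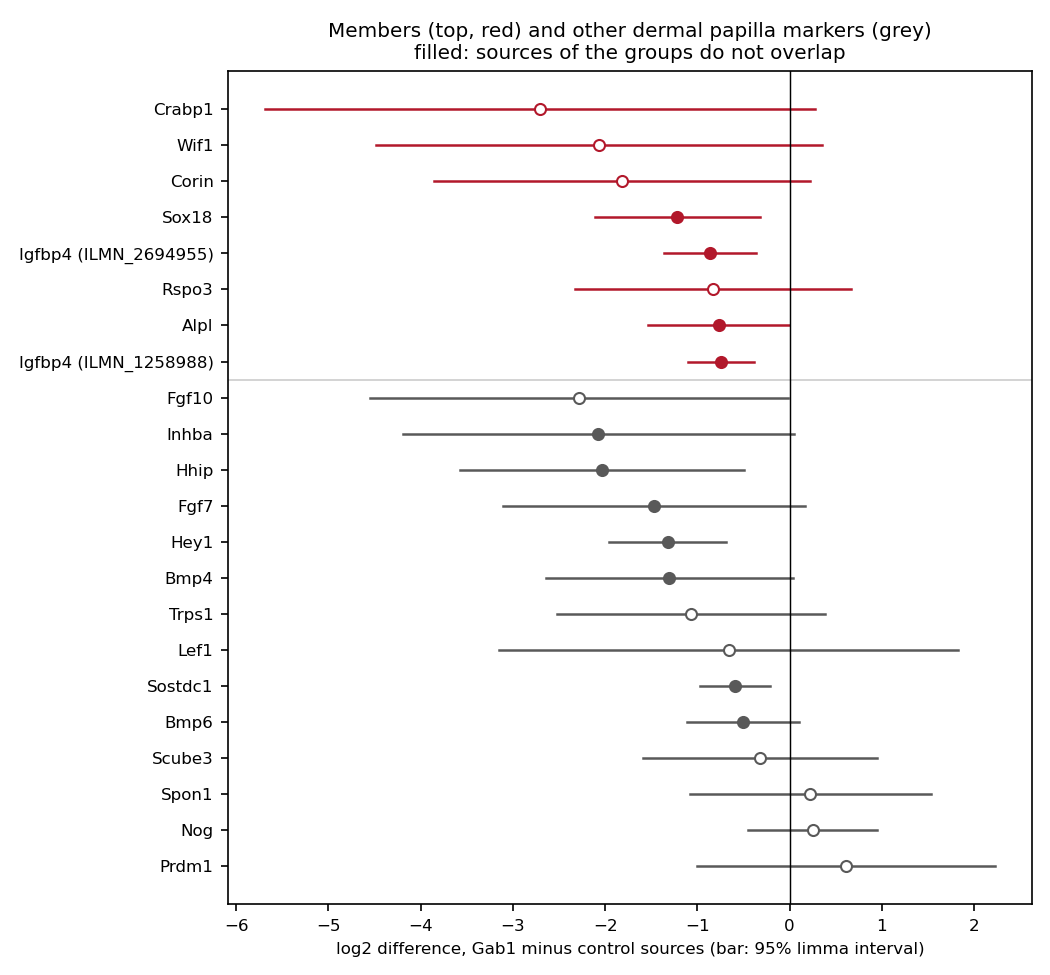
Log2 difference of mutant minus control sources (horizontal axis) for the 8 tested member probes (red) and 14 other papilla markers (grey), with 95% limma intervals. Filled points mark genes whose mutant and control sources do not overlap. Intervals are wide for Crabp1, Wif1 and Corin and narrow for Igfbp4.

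Genes of the pathways in which the members act had medians nearer to 0. In R-spondin and Wnt signalling, the pathway of Rspo3 and Wif1, 21 of 29 genes were tested, 0 passed in either direction, and the median difference was -0.09. Of the 21, 2 were above every control source in both mutant sources, against 15.8% of all tested probes, and 3 were below, against 14%. The 2 higher ones were Sfrp1, a secreted Wnt inhibitor, and Lgr5, an R-spondin receptor of follicle stem cells. They differed by 0.96 (limma adjusted p = 0.217) and 0.76 (limma adjusted p = 0.333). Retinoid carriers, enzymes and receptors, the setting of Crabp1, had a median of -0.33 over 10 tested genes. The related carrier Crabp2 differed by 0.18, and the receptor Rarb by -0.86 (limma adjusted p = 0.242).

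In the insulin-like growth factor axis, to which Igfbp4 belongs, 11 genes were tested with a median of -0.29, and 0 passed. Igf2, a ligand of the pathway, stood at 12.71 and 12.77 in mutant sources 1 and 2, against 13.92, 13.88 and 14.06 in control sources 1, 2 and 3. It differed by -1.22 (SE 0.11, limma adjusted p = 0.101). Igfbp2 differed by -1.14 (SE 0.19, limma adjusted p = 0.207). Both were close within each group, as Igfbp4 was among the controls.

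**Figure D4:**
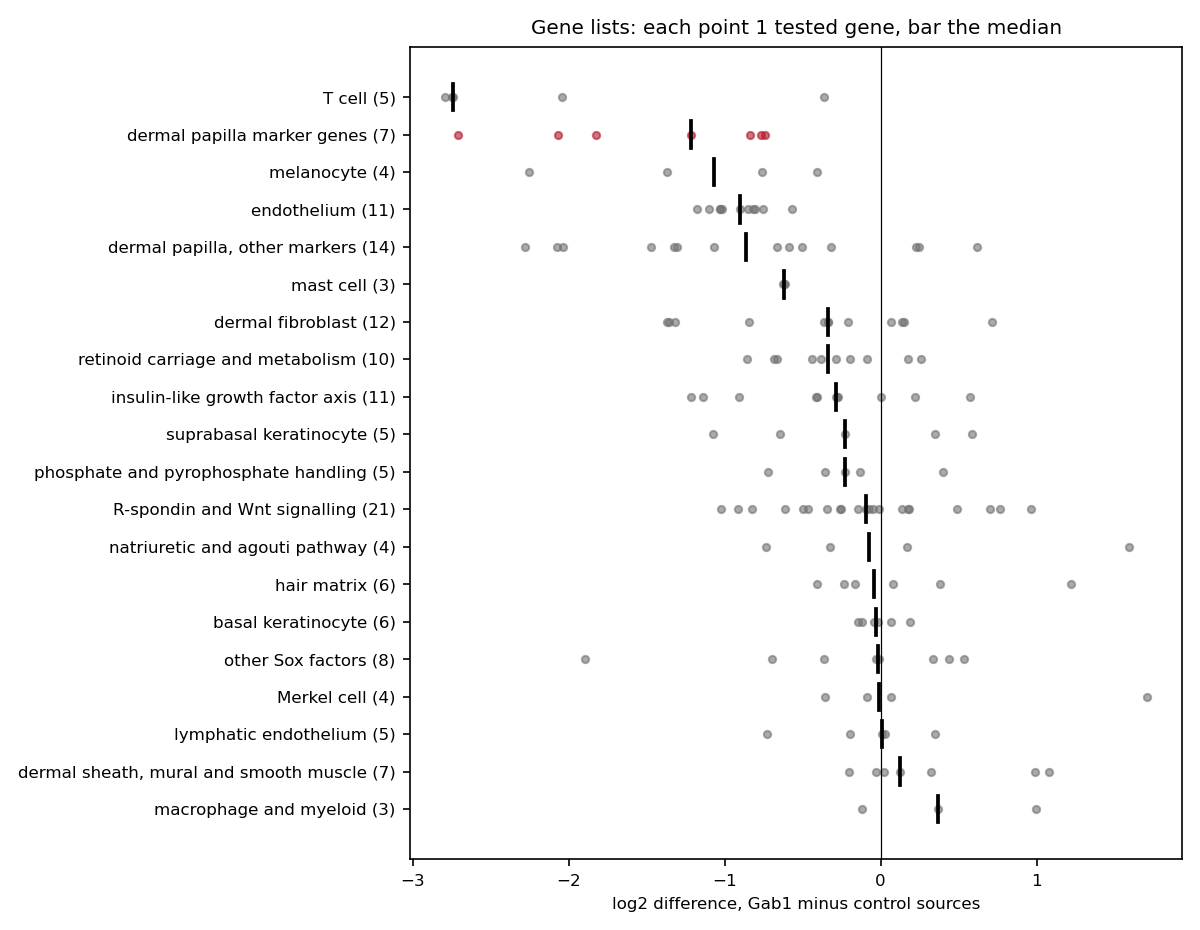
Log2 difference of mutant minus control sources (horizontal axis) for every tested gene of each list with at least 3 tested genes (rows, with the number of genes). Points are genes and bars are medians. The dermal papilla marker genes (red) have a median of -1.22 with 1 probe a gene, and the T cell list is the only row further to the left.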

How the data were processed

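The authors deposited, array by array, a raw intensity and its detection p-value, and the submitters' processing notes name GenomeStudio. The authors' normalized intensity, used as an alternative, equals the quantile-normalized raw signal within a median of 0.00648%. Values were corrected with neqc (offset 16, with the background estimated through the detection p-values), quantile-normalized and set to log2 in R 4.3.3 with limma 3.58.1. Tested were probes detected (p below 0.05) on 7 or more of the 16 arrays (14504 of 25697). Symbols came from the platform annotation, and 23978 probes had 1. Arrays of a group correlating above 0.99 were averaged to sources, and limma (lmFit, eBayes with trend, 3 residual and 2.53 prior degrees of freedom) compared 2 mutant with 3 control sources, with Benjamini-Hochberg adjustment over all tested probes at 0.05. Of several probes of a list gene, the one with the highest mean was used.

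The members, lists and tests were chosen with earlier results of these data known. Text on genes outside the members follows a rule: all members, Gab1, the 2 genes with the smallest p of each list, and the 2 nearest profiles of each member. Fgf7, Fgf10, Inhba, Bmp4, Bmp6, Hhip, Prdm1, Nog, Spon1, Crabp2, Krt14, Itga6, Krt20, Cd3e, Cd2 and Eif2s3y were added after their values were seen. So were Lef1 and Scube3. Not every gene the rule names is described. The fit was tested on simulated data with planted differences. These were drawn independently for each probe and source and so lack the source differences that many probes share here. The number of sources, 2 against 3, limits precision. Alternatives covered background, scaling, filter, slide, the replicate unit, a covariate, the variance trend and each source left out.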

Additional observations from a re-analysis of the deposited data

How the results depend on the processing

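Over 20 alternatives and 8 member probes, 133 of 160 values kept their direction and their side of the threshold, 23 crossed the threshold and 4 changed direction. The 4 were Corin (0.14), Rspo3 (0.73) and Wif1 (0.10) with the Eif2s3y level as a covariate and Rspo3 without mutant source 2, whose values ranged from -1.76 to 0.087 when sources were left out. The number of called member probes was 8 with 16 separate arrays, 6 with 16 arrays and the source as a random block, 7 with the title number as replicate block and 2 (both of Igfbp4) with the slide as a block and the source as a random block, and 0 otherwise. These 4 fits count arrays of a source as further observations. All probes called, 8 as reported, numbered 4914, 883, 3395 and 331 in the same 4 fits, 4 with no filter on dim probes, 1 with cyclic loess, and 8 without a variance trend. They numbered 0 with the covariate, with the authors' table, with detection on all 16 arrays, without background correction, with scaling to the 75th percentile, with an offset of 50 and in slide 1 or slide 2 alone. Unadjusted, 1453 to 3971 probes had p below 0.05 in those fits. The count was also 0 (range 0 to 0) without any one source, with 748 to 3798 probes below 0.05 unadjusted. With 1 mutant source left out, the lone one is assumed to vary like the others. Deviations of same-numbered arrays correlated from -0.386 to 0.418, which neither shows nor excludes a pairing by title number.

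The median member difference was -0.32 with the covariate, whose values do not overlap between the groups, and between -1.73 and -0.63 when sources were left out. The count of member probes with mutant sources below all controls ranged from 4 to 8 when sources were left out, that of other papilla markers from 7 to 11 and that of endothelial markers from 9 to 11. Over all tested probes the share ranged from 15.9% to 36.6% in these settings and was highest without mutant source 1. Within slide 1 and slide 2 the member count was 3 and 4, against 13.5% and 13.9% of all tested probes. These counts by source and slide were chosen after seeing the data. The slide by genotype difference was called for 0 probes by limma, with unadjusted p of 0.196 to 0.877 for the members. Crabp1, Alpl, Rspo3 and the T cell genes in mutant source 2 and Sox2 throughout lie near background, which limits their precision. The Crabp1 difference was -2.07 without background correction and -2.12 in the authors' table.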

Other observations

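Of the other cell type and pathway lists, 0 of the tested genes passed the limma threshold. Arrector and vessel muscle genes Acta2 and Tagln, which also mark the dermal sheath around the follicle, were higher in both mutant sources, by 0.99 (limma adjusted p = 0.257) and 1.08 (limma adjusted p = 0.259), while the median of their list of 7 was 0.12. They were the 2 of the 7 above every control source in both mutant sources, against 15.8% of all tested probes. Krt8, a keratin of Merkel cells and simple epithelia, was higher by 1.71 (limma adjusted p = 0.256), whereas Krt20, more specific to Merkel cells, differed by -0.09. Median differences were -0.03 for basal keratinocytes (6 genes), -0.23 for suprabasal keratinocytes (5), -0.04 for hair matrix (6), -1.06 for melanocytes (4) and -0.34 for dermal fibroblasts (12). They were 0.01 for lymphatic endothelium (5), -0.90 for blood endothelium (11), 0.37 for myeloid cells (3) and -0.62 for mast cells (3). They were -0.02 for other Sox factors (8), -0.08 for the natriuretic and agouti pathway (4), -0.23 for phosphate handling (5) and -0.01 for Merkel cells (4). Schwann cell, skeletal muscle and adipocyte lists had 2 tested genes each, with medians of -0.24, -0.80 and -0.49.

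Genes of several other cell types ran in the other direction among the controls. All 3 tested mast cell genes and all 3 myeloid genes ascended from control source 1 over 2 to 3, as 29.1% of all probes did. So did 8 of 11 endothelial, 4 of 5 suprabasal keratinocyte and 2 of 2 Schwann cell genes, while all 6 hair matrix, 4 melanocyte and 5 T cell genes descended, as 34.6% of all probes did. Corin, Wif1 and Crabp1 descended with those. Dermal fibroblast genes were split, with 7 of 12 descending and 5 ascending.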
